A study of Mus musculus with 2 samples.

Results

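The T cell receptor gene segments are the 226 annotated V, D, J and C segments of mouse chromosomes 1 to 19, out of 51229 annotated genes there. They were taken by their GENCODE M21 gene type and not by any measured value. They lie in 3 loci: 172 segments in the alpha-delta locus at chr14:52427928-54224206, 39 in the beta locus at chr6:40891229-41558452 and 15 in the gamma locus at chr13:19178024-19352756. By type there were 144 V, 4 D, 70 J and 8 C segments, and 44 further segments annotated as pseudogenes were not members. All coordinates are on mm10.

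Binding of CTCF, a zinc-finger protein that binds a long DNA motif and limits how far chromatin loops extend, was mapped by chromatin immunoprecipitation and sequencing in intestine of B6NCrl mice at postnatal day 0. There was 1 group of 2 replicates, with no other strain, treatment or age. Both replicates carried the same biosample and donor labels and came from powdered, pooled intestines, so their spread may be technical, and sex was not collected. No expression was measured, so the tissue label could not be checked against marker genes, and the share of T cells among the cells is not known.

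A T cell receptor chain is assembled in developing T cells by V(D)J recombination, in which the RAG enzymes cut and join 1 V segment, a D segment in the beta and delta chains, and 1 J segment, which is then spliced to a C segment. V segments each have their own promoter and lie in long arrays, and the enhancers lie near the J and C segments. CTCF, through the orientation of its motifs, is known to shape which V segments come near the J segments in thymocytes. In other cells the loci keep their unrearranged order.

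A summit is the position of highest enrichment in a peak. The optimal list holds the 73465 peaks that the authors kept after comparing the replicates by irreproducible discovery rate (IDR), and the pooled list holds 300000 peaks called on both replicates together. The signal is the authors' deposited enrichment value. How it was normalized is not stated, so it was only compared within a list, and replicates were compared by rank. Across the optimal list the signal ran from 4.48 to 756 with a median of 76.0. Read depth is unknown from these files, so the intervals given are for counting of peaks or segments only.

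The sequences that follow are the CTCF motifs at the summits on which the results turn, read 5′ to 3′ on the strand of the motif from the RefSeq copy of the mm10 assembly. Capitals mark the 19 bases matched by the CTCF matrix and lower case the 5 bases on each side. The first 6 lay in the 300 bases before V segments of the alpha-delta locus that had a summit there.
Trav3-1, chr14:52580508-52580526, plus strand: ggagcTGTCCACAAGGGGGCAGAAcacct
Trav3-3, chr14:53665836-53665854, plus strand: gaagcTGTCCACTAGGGGGCAGAGcatca
Trav3-4, chr14:53776872-53776890, plus strand: gaagcTGTCCACAAGGGGGCAGAGcatct
Trav17, chr14:53806399-53806417, plus strand: accttTGACCACAAGGGGGCACTGttgca
Trav12-1, chr14:53538079-53538097, plus strand: aagggAAACCAGCAGAGGGCGCTGcccct
Trav12-3, chr14:53621565-53621583, plus strand: aagggAAACCAGCAGAGGGCGCTGtccct

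The next 5 begin with the strongest summits between the V array and the alpha J segments. They end with the summits on each side of the beta D, J and C segments.
10.18 kb before Trdv4, chr14:54064710-54064728, plus strand: gctttTGAACACTAGGGGGCAATGctgga
14.94 kb before Trdv4, chr14:54059961-54059979, plus strand: tcaggGGACCACTAGATGGCAGCAgatgg
3.11 kb before Traj59, chr14:54153030-54153048, minus strand: tagttAGAGCAGCAGGGGGCGCTGtgagg
3.01 kb before Trbd1, chr6:41530175-41530193, minus strand: acaaaTGGACAGCAGGGGGCAGGCtttcc
1.11 kb after Trbv31, chr6:41556570-41556588, minus strand: cttttCTTCCACAAGAGGGCACAAgaagt

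Optimal summits stood within 2 kb of 49 of the 226 segments, 21.7% (exact 95% interval 16.5 to 27.6). The same window held a summit for 43.5% of all genes and for 24.6% of genes no longer than the longest segment, which spans 8199 bases. The window was taken around the whole span, so longer genes had more room for a summit. Most segments are far shorter than 8199 bases, and neither set of genes was matched to them in length. Of all sequenced bases, without regard to genes, 10.4% lay within 2 kb of an optimal summit. The differences from these shares were not tested. The 49 segments shared 37 distinct summits, so they are not independent units. V segments had a summit in 33 of 144 cases (22.9%) and J segments in 16 of 70 (22.9%), while none of the 4 D and none of the 8 C segments had one. In the pooled list, 90 segments (39.8%) had a summit within 2 kb, against 65.1% of all genes.

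Immunoglobulin segments, which are built into antibodies by the same recombination reaction, gave 19 of 264 (7.20%, exact 95% interval 4.39 to 11.0). Their 19 were all V segments, out of 218. None of the 264 had a summit in the 300 bases before its 5′ end, against 22 of the 226 T cell receptor segments (9.73%). Over all genes that share was 7.11%. The difference between the receptor families was not tested, and repeated sequence in the immunoglobulin loci was not measured.

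The 3 loci held 60 optimal summits, 22.7 per Mb (exact Poisson 95% interval 17.4 to 29.3), beside 29.9 per Mb over chromosomes 1 to 19. The 100 kb flanks on both sides of each locus held 21, 35 per Mb (21.7 to 53.5). The median signal was 64.1 inside the loci, where 25 of 60 summits were above the median of the list, and 189 in the flanks, where 16 of 21 were. Of the 36-base words, 47.5 to 73.8% occurred once in the assembly over the loci and 80.4 to 96.7% over the flanks. The part of repeated sequence in these differences was not tested. All 60 summits in the loci and all 21 in the flanks overlapped a peak in the list of each replicate. Of 300000 peaks in each of these lists, those in the loci ranked in the top 0.732 to 32.7% in replicate 1 and 1.10 to 35.6% in replicate 2. The optimal list was itself derived from the replicate lists and the pooled list, so the overlap is no separate check of the summits.

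**Figure D1:**
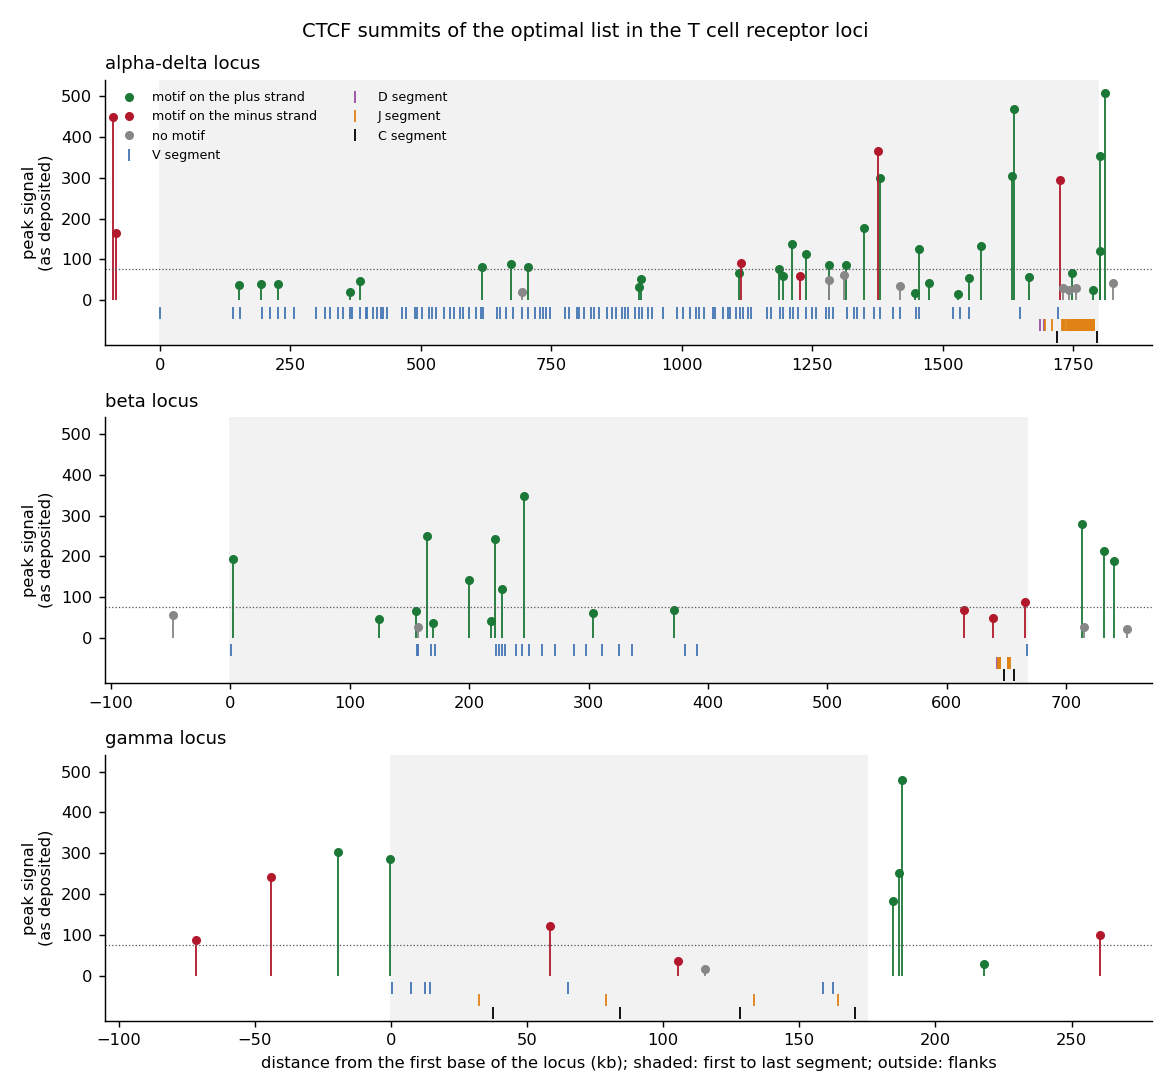
Maps of the alpha-delta, beta and gamma loci with 100 kb on each side. Each stem is an optimal summit, at its distance from the first base of the locus (kb, horizontal) and with its deposited signal (vertical), coloured by the strand of its CTCF motif; ticks mark V, D, J and C segments, shading the span of the locus and the dotted line the median signal of the list (76.0). Plus-strand motifs fill the alpha-delta and beta V arrays (30 of 34 and 12 of 15 over the whole loci), and the 2 motifs inside the gamma locus are on the minus strand.

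**Figure D2:**
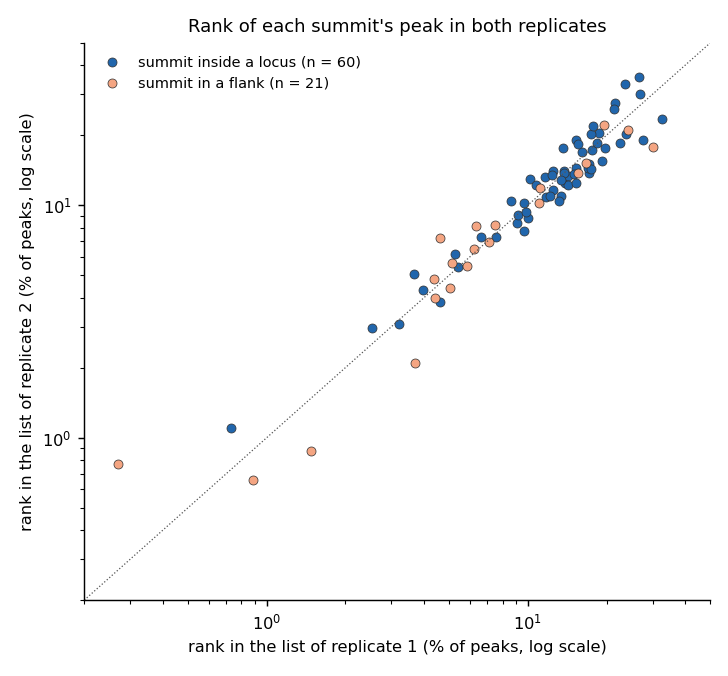
Rank of the peak at each summit in the list of replicate 1 (horizontal) and of replicate 2 (vertical), as a percentage of 300000 peaks on log scales, for the 60 summits inside a locus and the 21 in a flank. A low percentage is a strong peak, and the dotted line marks equal ranks. Points lie along that line, and flank summits reach the strongest ranks in both replicates. The optimal list was derived from the replicate lists, so this is no separate check of the summits.

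A CTCF motif, called where the matrix score passed the threshold within 100 bases of the summit, was found at 51 of the 60 summits in the loci (85.0%, exact 95% interval 73.4 to 92.9) and at 17 of 21 in the flanks (81.0%). Over the optimal peaks of all chromosomes not used to train the matrix it was found at 71.1% of 35386, and in windows 1 kb away from those summits at 3.99%. The matrix was trained on other chromosomes than those of the loci.

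In the alpha-delta locus, the 41 summits gave 22.8 per Mb (exact Poisson 95% interval 16.4 to 31.0) over 1796.3 kb. Its V array from Trav1 to Trav23 held 31 of them, with signals of 16.6 to 366. Of the 115 V segments of this locus, 22 had a summit within 2 kb (19.1%), and in 17 of them a summit lay in the 300 bases before the 5′ end, at 47 to 262 bases (median 113). Signals at these 17 summits ran from 19.5 to 300 with a median of 53.8. Within 2 kb, 43.5% of all genes and 24.6% of genes of up to 8199 bases had a summit. In the 300 bases before the 5′ end it was 14.8% of these V segments and 7.11% of all genes. The differences were not tested.

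Trav17 had the strongest of these upstream summits, 222 bases before the segment, with a signal of 300 in the optimal list. It was 139 in replicate 1 (rank 13781) and 162 in replicate 2 (rank 11516). A second summit lay 2207 bases before Trav17 with a signal of 366, 184 in replicate 1 (rank 7623) and 181 in replicate 2 (rank 8878). The 2 motifs of this pair were on opposite strands, plus at the nearer and minus at the farther summit. Both were strong, ranking within the top 17.3% and 11.1% of the optimal list.

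The Trav3 family had upstream summits at 3 of its 5 annotated members. Trav3d-3 and Trav3n-3 had none, with the same 19 motif bases as Trav3-3, at 0.588 and 0.915% unique 36-base words (defined with the repeats). That share was 91.1% around Trav3-4, 52.5% around Trav3-3 and 88.7% around Trav3-1. Trav3-4 had 177, with 84.4 in replicate 1 (rank 22670) and 92.7 in replicate 2 (rank 21879). Trav3-3 had 113, with 57.4 (rank 29034) and 54.8 (rank 30611). Trav3-1 had 36.6, with 18.7 (rank 52762) and 20.3 (rank 51812). The order Trav3-4, Trav3-3, Trav3-1 was the same in both replicates. Their motifs differed by A8T and A19G from Trav3-1 to Trav3-3 and by A19G alone from Trav3-1 to Trav3-4, counted from the 5′ end of the 19 bases. Whether these letters bear on the signals was not tested.

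Trdv1, a delta V segment within the alpha array, had an upstream summit of signal 126, with 54.2 in replicate 1 (rank 29963) and 70.1 in replicate 2 (rank 26463). Trav12-1 and Trav12-3, with the same 19 motif bases, had upstream summits of 67.9 and 60.4. Those were 29.2 and 29.9 in replicate 1 and 37.4 and 30.2 in replicate 2. The ranks of Trav12-1 were 41763 and 37498, close to the 41207 and 41927 of Trav12-3. Of the 35 summits of the locus that were nearest a V segment, 12 lay more than 2 kb from it. One of them, 2484 bases after Trav13-2, had a signal of 139 (63.5 in replicate 1 and 76.0 in replicate 2), and another, 3107 bases after Trav12-1, had 91.0 with a minus-strand motif.

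The first summit along the locus was that of Trav3-1, 152.6 kb from its start, and the nearest to Trav1, the first V segment, lay 84136 bases away, outside the locus. Trav23, the last V segment of the array, had an upstream summit of 53.8, with 24.3 in replicate 1 (rank 45946) and 28.1 in replicate 2 (rank 43535). Of 25 families by name, 11 had no summit within 2 kb in the optimal list, 9 of them without an upstream motif as well. The larger ones were Trav13 (11 segments), Trav14 (9), Trav4 (7) and Trav15 (6). Their median shares of unique 36-base words within 2 kb were 2.97, 46.2, 3.36 and 1.4%. In the pooled list 1 Trav4 segment had a summit within 2 kb. None of the segments in those 4 families had a CTCF motif in the 300 bases before its 5′ end. Trav11 (2 of 2 segments) and Trav18 (1 of 1) also had no optimal summit within 2 kb but did have the motif, at 1.03 to 1.38% and 97.4% unique 36-base words (defined with the repeats).

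An upstream motif occurred in 13 of the 25 alpha-delta V families, at segments with and without a summit. It was present in 62 of 115 V segments (53.9%) and in 7.62% of all genes over the same 300 bases. All 62 motifs were on the strand of their segment. They had 30 distinct sequences of 19 bases, and many are copies, so the 62 are not independent units. Members of Trav12 (9 of 9), Trav7 (12 of 13), Trav6 (12 of 15) and Trav9 (7 of 10) carried an upstream motif. Among beta V segments it was present in 2 of 22 (Trbv15 and Trbv30), and among gamma V segments in 1 of 7 (Tcrg-V7). J segments had it in 4 of 53 alpha-delta cases and none of 13 beta or 4 gamma ones. Of the 218 immunoglobulin V segments 4 had one (1.83%).

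The centre of the motif lay 39 to 280 bases before the 62 V segments, with a median of 150. For the 15 that also had a summit in these 300 bases the range was 75 to 273 with a median of 148, and for the 47 without it was 39 to 280 with a median of 154. The difference was not tested. The median matrix score was 19.8 for the former and 18.4 for the latter. A match is a description of the letters and not evidence of binding.

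**Figure D3:**
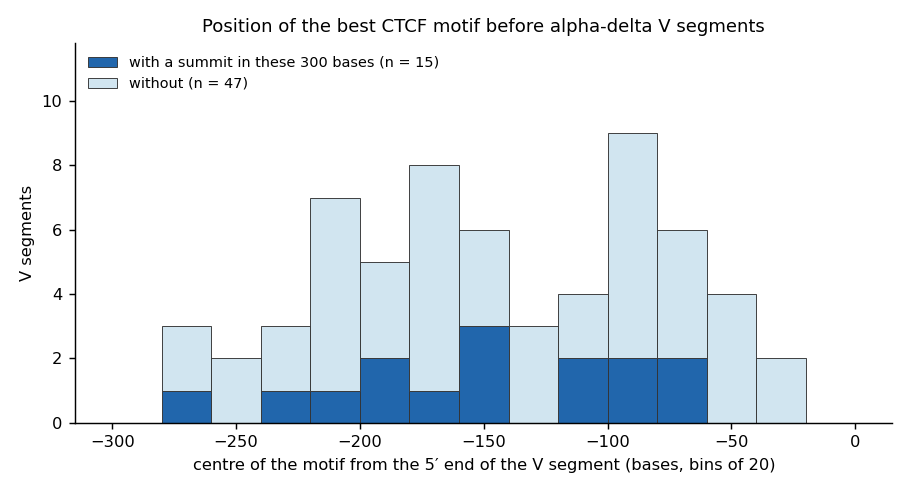
Distance of the centre of the best CTCF motif from the 5′ end of the 62 alpha-delta V segments that have one (horizontal, bases, in bins of 20) and number of V segments (vertical). Dark bars are the 15 segments with an optimal summit in the same 300 bases and light bars the 47 without. The dark bars cover 75 to 273 bases and the light ones 39 to 280, with medians of 148 and 154 bases.

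Much of the alpha V array is a repeat of itself: C57BL/6 mice carry copies of a central block, whose segments have d or n after the family number. The share of 36-base words that occur once in the assembly was therefore measured around each segment. It was 47.5% over the alpha-delta locus, 73.8% over the beta locus and 63.6% over the gamma locus, beside 86.4% in 2462 windows spaced over chromosomes 1 to 19. Within 2 kb of alpha-delta V segments the median was 60.9% for the 22 with a summit and 19% for the 93 without. Of the 51 V segments with under 25% unique words none had an optimal summit, although 25 of them carried the upstream motif. From 25 to 50% it was 5 of 21, from 50 to 75% 8 of 24, and from 75 to 100% 9 of 19. The treatment of reads that map to several places is not stated, and the part of repeated sequence in the missing summits was not tested.

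**Figure D4:**
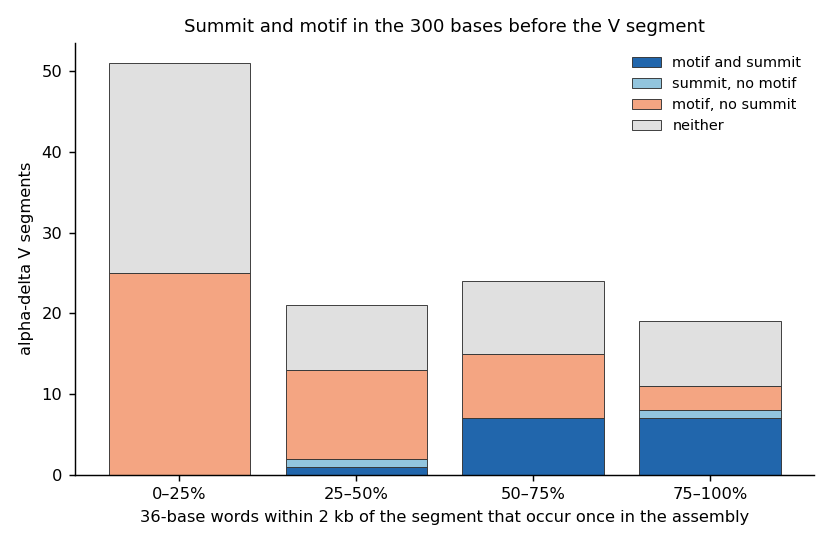
Alpha-delta V segments (vertical, number) by the share of 36-base words within 2 kb that occur once in the assembly (horizontal, 4 bins), split by whether the 300 bases before the segment hold a CTCF motif, an optimal summit, both or neither. The 51 segments in the bin of 0 to 25% include 25 with a motif and none with a summit, and the 24 and 19 segments of the upper bins include 7 each with both.

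Copies that share the same motif letters allow the same sequence to be followed at several places. In 16 sets, 48 V segments shared the 19 bases of their upstream motif with at least 1 other. In 6 sets some members had a summit within 2 kb and others had none. In 4 of those 6 every member with a summit had more unique words around it than every member without. The Trav12 set was the largest, with 7 members: Trav12-1, Trav12-2 and Trav12-3 had a summit and 62.9, 58.8 and 64.4% unique words, and the 4 without had 0.467 to 0.787%. For Trav12-2 that summit lay 1781 bases before the segment and not at its upstream motif.

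Trav6n-6 was another such case. It had a summit of 81.0 (36.1 in replicate 1, rank 37364, and 43.4 in replicate 2, rank 34706) and 55.5% unique words. Trav6d-6 and Trav6-6, with the same 29 bases, had 11.2 and 6.99% unique words and no summit. The 3 copies are printed to show that the letters are the same.
Trav6n-6, chr14:53132566-53132584, plus strand: gctccTGTCCACCAGGGGGCGCAGatgcc
Trav6d-6, chr14:52821788-52821806, plus strand: gctccTGTCCACCAGGGGGCGCAGatgcc
Trav6-6, chr14:53516795-53516813, plus strand: gctccTGTCCACCAGGGGGCGCAGatgcc

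In the other 2 mixed sets a member without a summit had more unique words than one with it. Trav10d and Trav10n had upstream summits of 46.7 and 21.4 at 32.2 and 50.9% unique words, while Trav10 had none at 58.9%. Trav8n-2 had one of 32.1 at 52.2% and Trav8d-2 none at 54.9%. Both Trav10 and Trav8d-2 had pooled summits within 2 kb. No motif was called at the Trav10n summit, chr14:53122001, because the shared motif at chr14:53121892-53121910 was not wholly within 100 bases of it. The remaining 10 of the 16 sets had no member with a summit, and in no set did every member have one. Those 10 included Trav6-2 at 95.2% unique words, Trav7n-4 at 61.9%, Trav5-4 at 56.5% and Trav9-4 at 41.8%, as well as the Trav12d-2 and Trav9d-3 sets at 0%. In the pooled list Trav5-4 had 2 summits within 2 kb, and Trav6-2, Trav7n-4 and Trav9-4 had none. Trav7d-4 and Trav9-2, which share their motifs with Trav7n-4 and Trav9-4, had 1 pooled summit each.

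**Figure D5:**
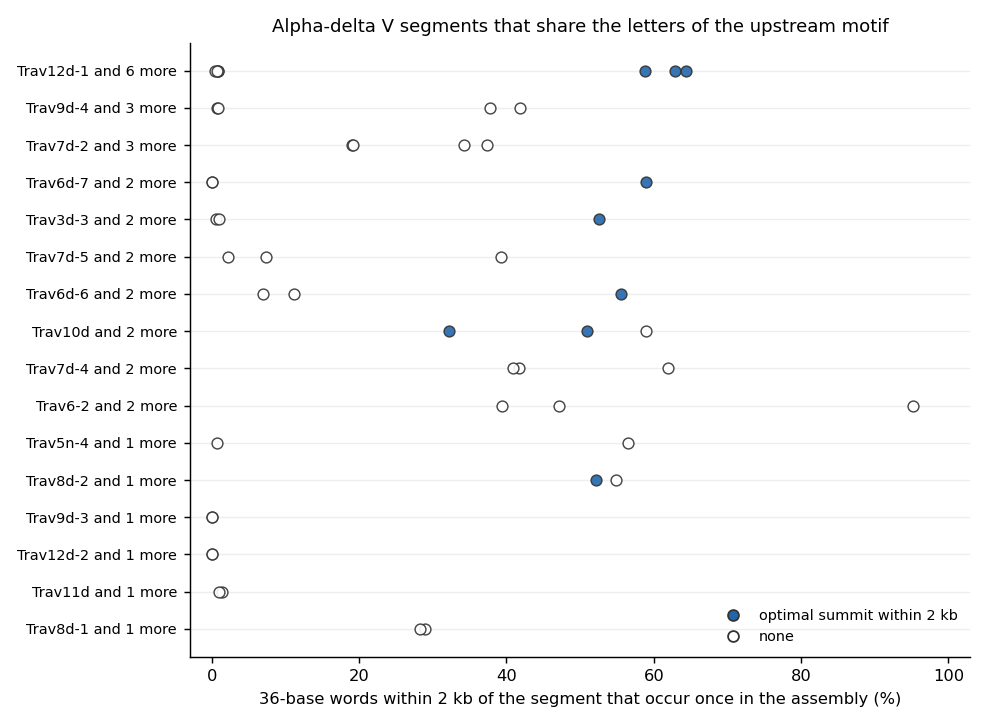
The 16 sets of alpha-delta V segments that share the 19 letters of their upstream motif (rows, named by their first member), with the share of unique 36-base words within 2 kb of each segment (horizontal, %). Filled points have an optimal summit within 2 kb and open points have none. In the Trav12 row the 3 filled points lie at 58.8 to 64.4% and the 4 open ones below 1%, and in the Trav10 and Trav8d-2 rows an open point lies to the right of the filled ones.

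The widest stretch without an optimal summit in the alpha-delta locus was 234.7 kb, chr14:52810784-53045523. It held 24 segments from Trav10d to Trav8d-2, of which 13 carried an upstream motif, and 5.07% of its 36-base words were unique. Trav10d is among these segments and motifs, although its upstream summit, of signal 46.7, bounds the stretch. The pooled list had 2 summits in it, the stronger at 7.47.

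Between the V array and the alpha J segments lay 5 summits, 4 of them above the median signal of the list. The 97.2 kb from Trav23 to Trdv4 held 3 summits, 133 to 469. The strongest of the whole locus lay 10.18 kb before Trdv4, with a signal of 469 in the optimal list. In replicate 1 it was 238 (rank 2195) and in replicate 2 231 (rank 3293). Another, 14.94 kb before Trdv4, had 305, with 153 in replicate 1 (rank 11840) and 151 in replicate 2 (rank 12961). The third, 23.04 kb after Trav23, had 133, with 62.9 (rank 27459) and 67.5 (rank 27137). All 3 motifs were on the plus strand, and 97.0% of the 36-base words of this interval were unique. In thymocytes a pair of CTCF-bound elements is known between the distal V segments and Trdv4; whether these summits are those elements was not examined. The 38.0 kb from Trdv4 to Trdd1 held 1 weaker summit, 17.14 kb after Trdv4, with 57.6 (25.4 in replicate 1, rank 44943, and 31.7 in replicate 2, rank 40891).

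The delta D, J and C segments had no optimal summit. The 35.8 kb from Trdd1 to Trdv5 held none, and the nearest to Trdd1, Trdd2 and Trdc lay 20816, 29574 and 4158 bases away. The pooled list had summits within 2 kb of Trdd1 and Trdc and none within 2 kb of Trdd2. Between Trdv5, an inverted V segment, and the first alpha J segment there was 1 summit. It lay 3107 bases before Traj59 with a signal of 294, and was 159 in replicate 1 (rank 11021) and 135 in replicate 2 (rank 15230). Its motif was on the minus strand. A promoter that is used before alpha recombination, named TEA, is known from thymocytes in this interval.

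The alpha J array, 51 segments from Traj59 to Traj2 over 61.8 kb, held 5 weak summits of 24.4 to 66.3. They accounted for the 16 J segments with a summit within 2 kb, 30.2% of the 53 in the locus, beside 43.5% of all genes. In 3 cases the summit lay in the 300 bases before a J segment: 27 before Traj57, 69 before Traj49 and 56 before Traj42. The one at Traj42 was the strongest of the array at 66.3, with 27.8 in replicate 1 (rank 42856) and 39.4 in replicate 2 (rank 36528). It was also 1 of the 2 with a motif. The last summit in the locus lay 850 bases after Traj5, with 25.9. Unique words made up 98.5% of this array, so repeats were few there.

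Trac, the alpha C segment, had no optimal summit within 2 kb but 2 in the pooled list. The nearest optimal summit lay 3915 bases after it in the downstream flank. That summit had 353, with 158 in replicate 1 (rank 11096) and 202 in replicate 2 (rank 6299). The strongest of the downstream flank was at 507, in an intron of Dad1, a subunit of the oligosaccharyltransferase of the endoplasmic reticulum, 15.04 kb after Trac. It ranked 806 in replicate 1 and 2317 in replicate 2, with motifs on the plus strand at both flank summits. In the upstream flank the strongest summit was 449, 89.07 kb before Trav1 and 8.64 kb from the olfactory receptor gene Olfr1513, and the one nearest the locus was 166, 84.14 kb before Trav1. Both of those motifs were on the minus strand.

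Motif strands therefore ran as 30 plus and 4 minus over the alpha-delta locus, and as 25 and 4 with the stricter threshold of 15.02 in place of 9.71. Of the 31 motifs at summits nearest a V segment, 28 were on the strand of that segment. Neighbouring motifs in copied sequence are not independent, so the split is given as a description.

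The beta locus held 16 summits, 24.0 per Mb (exact Poisson 95% interval 13.7 to 38.9). V segments had a summit within 2 kb in 10 of 22 cases (45.5%, exact 95% interval 24.4 to 67.8), from 8 summits. None of its 13 J, 2 D and 2 C segments had one. The same window held a summit for 43.5% of all genes and for 24.6% of genes of up to 8199 bases. Of the beta V segments, only Trbv3 had a summit in the 300 bases before its 5′ end, 4 bases before it and weak at 26.7. It was 8.45 in replicate 1 (rank 83108) and 16.8 in replicate 2 (rank 57369).

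The strongest beta summit lay 1562 bases after Trbv14, with 348 in the optimal list, 169 in replicate 1 (rank 9626) and 178 in replicate 2 (rank 9259). The summit 3622 bases before Trbv4 had 251, with 123 (rank 16200) and 128 (rank 16264). Trbv12-1 and Trbv12-2 had summits at nearly the same distance, 491 and 477 bases before the segment. These were 242 and 121 in the optimal list, 126 and 69.4 in replicate 1, and 112 and 53.1 in replicate 2. Trbv12-1 was the higher in both replicates. A summit of 143 lay 22.21 kb before Trbv12-1, in an intron of a gene annotated as sense overlapping.

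The first beta summit along the locus lay 1854 bases after Trbv1 and 1531 bases from Prss58, a trypsin-like serine protease gene, with 193 (100 in replicate 1, rank 19761, and 92.9 in replicate 2, rank 21850). Prss58 was the only one of the 14 protein-coding genes lying in the beta locus, several of them trypsinogen genes, with an optimal summit within 2 kb. Among all genes of chromosomes 1 to 19, 43.5% had such a summit. Trbv2, the next V segment, had one 587 bases before it with 65.3. The summit 8387 bases before Trbv29 had 68.8, and it was the last in the V array.

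From there the longest interval without an optimal summit in the beta locus, 242.5 kb, ran through the trypsinogen genes to chr6:41505545. Unique words made up 62.8% of it, and the strongest of its 2 pooled summits was 12.8. The summit that ended it had 69.4 and lay 27.66 kb before Trbd1. Another lay 3006 bases before Trbd1, with 50.1 in the optimal list, 19.2 in replicate 1 (rank 52126) and 29 in replicate 2 (rank 42867). The last of the locus, 1114 bases after Trbv31, had 87.6, with 38.4 (rank 36157) and 48.9 (rank 32568).

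The beta motif strands fell into an ordered pattern. The 12 motifs from Trbv1 to Trbv29 were all on the plus strand, that of their V segments, and the 3 from there to Trbv31 were all on the minus strand. With the stricter threshold 7 plus and 2 minus motifs were left. Trbv31 is the V segment that lies on the minus strand beyond Trbc2, and the motif next to it was on its own strand. The 15.2 kb from Trbd1 to Trbc2 held no optimal summit at 94.4% unique words. There was also none in the pooled list within 2 kb of Trbd1, Trbd2, Trbc1 or Trbc2. The nearest optimal summit lay 3669 bases from Trbj1-1, 12721 from Trbj2-7, 8023 from Trbc1 and 8225 from Trbc2.

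Of the beta flanks, the upstream one held 1 summit, at 56.0 in an intron of the pseudogene Mgam2-ps, with no motif. The downstream one held 5. Its strongest, 280, lay 986 bases from Ephb6, which encodes a receptor of the ephrin family, and it was also the one nearest the locus, 46.04 kb from Trbv31.

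The gamma locus held 3 summits, 17.2 per Mb (exact Poisson 95% interval 3.54 to 50.2). Of its 15 segments, 1 had a summit within 2 kb (6.67%), beside 43.5% of all genes and 24.6% of genes of up to 8199 bases. That segment was Tcrg-V7, the first V segment of the locus, which is known as the gamma segment used by many intraepithelial lymphocytes of the mouse gut. Its summit lay 224 bases before the 5′ end and thus just outside the span of the locus. The signal was 287, with 145 in replicate 1 (rank 13072) and 141 in replicate 2 (rank 14421). Its motif, on the strand of the segment, is printed with those of the 2 summits in the locus that had one.
Tcrg-V7, chr13:19177788-19177806, plus strand: ctcagTCACCTCAAGGGGGTGCCAaatac
6.28 kb before Tcrg-V3, chr13:19236552-19236570, minus strand: agaagAGGACACAAGGGGGCACTActctg
19.85 kb after Tcrg-C3, chr13:19283357-19283375, minus strand: agaagATGACACAAGGGGGCACTActgtg

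The summit before Tcrg-V3 had 121, with 55.3 in replicate 1 (rank 29607) and 64.7 in replicate 2 (rank 27917). The one after Tcrg-C3 had 35.4, with 15.1 (rank 59335) and 19.6 (rank 52827). Their motifs shared 18 of 19 bases, with G2T from the former to the latter, and the former was the higher in both replicates. The third summit, 11.45 kb from Tcrg-C2, was among the weakest of the list at 16.8 and had no motif. All 4 gamma C and all 4 J segments had no summit within 2 kb in the optimal or the pooled list. The nearest to Tcrg-C1 and Tcrg-C3 lay 19541 and 19851 bases away, and those nearest the outermost J segments, Trgj1 and Trgj4, 26163 and 20347 bases.

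Tcrg-V4, Tcrg-V5 and Tcrg-V6, which follow Tcrg-V7 within the same cluster, had no optimal summit within 2 kb, at 99.3 to 100% unique words. Tcrg-V5 and Tcrg-V3 had 1 pooled summit each. The median signal was 265 in the upstream and 184 in the downstream flank of the gamma locus, and 35.4 inside it. Unique words made up 63.6% of the locus, 93.9% of the upstream flank and 88.5% of the downstream flank. The upstream one held 4 summits including that of Tcrg-V7, and its strongest, 302, lay 19.32 kb before Tcrg-V7, 3327 bases from an antisense gene, with Amph 7.79 kb away. The downstream one held 5, led by one of 479 in an intron of Stard3nl, which encodes a late endosome protein, 13.05 kb after Tcrg-C4. Nearest the locus was one of 184, 9.80 kb after Tcrg-C4, also in a Stard3nl intron.

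Most pooled summits in the loci that were in no optimal peak were weak. There were 78 of 120 in the alpha-delta locus with a median of 6.04, 15 of 31 in the beta locus with 6.38, and 3 of 6 in the gamma locus with 6.60. The strongest of each lay close to a V segment: 29.2 at 219 bases from Trav18, 20.7 at 125 bases from Trbv20 and 7.30 at 87 bases from Tcrg-V3. In the alpha-delta locus 11 of these 78 lay in the 300 bases before a V segment. Only the one at Trav18 had a motif among those 3.

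Genes whose products act on these segments were described with a wider window of 10 kb around any transcription start. Of 18 V(D)J recombination genes, 15 had an optimal summit (83.3%, exact 95% interval 58.6 to 96.4), and of 15 genes of receptor partners and proximal signalling, 11 (73.3%, 44.9 to 92.2), against 74.4% of all protein-coding genes. In the former list the strongest were Nhej1, an end-joining factor, at 385 and Hmgb2, a DNA-bending protein, at 370. Rag1 and Rag2, whose products cut the segments, had 281 and 23.2. Dntt, which encodes the polymerase that adds bases at the joins, had none. In the latter the strongest were Zap70, a kinase of the receptor, at 389 and Cd247, the zeta chain, at 388, and Cd3d had none. Both intervals include the share of all protein-coding genes.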

How the data were processed

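Peak lists of CTCF ChIP-seq on mm10 were used: 1 per replicate, 1 pooled and 2 filtered by IDR. The authors' descriptions deposited with the files say that the pooled list was derived from the 2 alignments plus 1 more file whose role is not described, and each IDR list from the replicate lists together with the pooled list. The aligner, the caller, the IDR threshold and whether a control entered: not given in the sources used here. Values are the peak signal the authors deposited, with unstated normalization; the deposited summit offset gave positions. Members, lists and named summits were chosen with earlier results of these data known.

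Summits were matched to GENCODE M21 segments, with a window of 2 kb, flanks of 100 kb and 300 bases for promoters. Genes and summits named were all summits of a locus with few, otherwise the 10 strongest, first and last; all C and D and outermost V and J segments; in each flank the strongest and nearest summit; the strongest pooled-only summit; in each gene list the 2 strongest genes and the first without a summit. Other V and J segments, motif sets and Rag1 and Rag2 were named after their values were seen. A replicate peak was the overlapping one with the nearest summit. The motif matrix of 19 bases was trained from a CTCF consensus on the 5000 strongest optimal peaks of odd-numbered chromosomes except 13, in 6 rounds with a pseudocount of 1. The threshold, 9.71, was the score that 5% of training windows 1 kb away reached. Uniqueness counted words of 36 bases, both strands, over the primary assembly; the read length was not known. The counting of summits near segments, the motif search and the count of unique words were tested on simulated data. With 1 group there was no contrast and no test. Alternatives were other windows, lists, thresholds, words of 50 bases and each replicate alone. Python 3.11.15, numpy 2.4.6, pandas 2.3.3, scipy 1.17.1, numba 0.67.0 and matplotlib 3.10.9 were used.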

Additional observations from a re-analysis of the deposited data

How the results depend on the processing

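Of 44 alternative values for 9 results, 33 lay within 1.5 times the reported one and 11 did not. The 49 segments near an optimal summit became 31 with a window of 1 kb, 82 with 5 kb, 109 with 10 kb, 90 with the pooled list and 16 with only peaks above the median signal. With those stronger peaks alone the alpha-delta locus held 17 summits in place of 41, the beta locus 7 in place of 16 and the gamma locus 1 in place of 3. Widening the gamma locus by 10 kb gave 5, which includes the summit before Tcrg-V7. Flanks of 200 kb held 45 summits in place of 21. With a window of 2 kb, 15 of the genes of both lists had a summit in place of 26. Leaving out a replicate, by taking the strongest peaks of the other, gave 44 to 51 segments, 41 summits in the alpha-delta locus, 16 in the beta locus, 2 in the gamma locus, 24 to 25 in the flanks and 52 to 53 motifs, so the gamma count moved by 1.5 times in both cases. With words of 50 bases 61.3% of the loci was unique in place of 55.2%. Without read counts, a weak peak that falls short of the optimal list cannot be told apart from one limited by depth. No paired analysis was possible because there was a single group.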
